A study of Mus musculus with 2 samples.

Results

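CD8 T cells of mouse mammary tumours are described here as the barcodes that passed a fixed rule on their UMI counts (unique molecular identifiers, 1 per captured RNA molecule). A cell had at least 200 genes, at most 10% mitochondrial UMIs, at least 1 UMI of Cd3d, Cd3e or Cd3g and at least 2 UMIs of Cd8a and Cd8b1 together. It had no Cd4 or Foxp3 UMI, under 10 UMIs of C1qa, C1qb and C1qc and under 50 of S100a8 and S100a9 per 10000, and under 3 UMIs of Mki67, Top2a, Birc5 and Cdk1 together. The rule was met by 312 of 12496 barcodes, 298 of 7476 in the PyMT-M library and 14 of 5020 in the PyMT-N library. The cells were chosen by the UMI counts of the genes in the rule, so the levels of those genes are a description and not a finding.

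The study injected cells of the mouse mammary tumour lines PyMT-M or PyMT-N into the mammary gland of mice and took the tumours after 4 weeks, when they measured 0.7 to 1 cm. In both groups the viable immune cells, positive for CD45 and negative for the dye DAPI, were sorted and read with the 10x Genomics 5′ chemistry. There was 1 library per line, and the strain, the sex, the number of mice pooled and the meaning of the letters M and N were not given in the labels. A difference between the libraries therefore has no replicate check, and intervals are 95% intervals that cover counting error only. The libraries held 43977988 UMIs for PyMT-M and 14907736 UMIs for PyMT-N, with a median per barcode of 5069.5 UMIs for PyMT-M and 1955 UMIs for PyMT-N. They had 60 barcodes in common, 1 of them a PyMT-M CD8 T cell. CD8 T cells had a median of 3598 UMIs in PyMT-M, between 564 and 15155, and of 3397 UMIs in PyMT-N, between 2008 and 6007. Ribosomal protein genes took a median of 26.3% of a cell's UMIs in PyMT-M CD8 T cells and of 39.6% in those of PyMT-N.

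CD8 T cells recognise peptides on MHC class I molecules through a T cell receptor built from rearranged V segments, so cells descended from a common precursor carry the same beta chain segment. After activation they make granzymes and the granule protein Nkg7, and under lasting stimulation in tumours they take on inhibitory receptors such as PD-1 (Pdcd1), Ctla4, Lag3 and Tigit together with the transcription factor Tox. Naive and resting memory cells instead keep Ccr7, Il7r and S1pr1, which direct homing, survival and exit from tissue.

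Reads of the 5′ chemistry begin close to the V segment, and 3 V segments divided the PyMT-M CD8 T cells. Their V exons, read from GRCm38 with the GENCODE annotation, lie on the plus strand at chr6:41116175-41116468 for Trbv13-1, chr6:40891591-40891885 for Trbv1 and chr14:53545247-53545525 for Trav13-1. They are shown because a count of a V segment is only as certain as the segment's difference from its closest copy. Capitals mark the 33 bases at which Trbv13-1 differs from Trbv13-2 and the 11 bases at which Trav13-1 differs from Trav13d-1, in gapless alignments. Trbv1 has no close copy and is in lower case throughout.
Trbv13-1: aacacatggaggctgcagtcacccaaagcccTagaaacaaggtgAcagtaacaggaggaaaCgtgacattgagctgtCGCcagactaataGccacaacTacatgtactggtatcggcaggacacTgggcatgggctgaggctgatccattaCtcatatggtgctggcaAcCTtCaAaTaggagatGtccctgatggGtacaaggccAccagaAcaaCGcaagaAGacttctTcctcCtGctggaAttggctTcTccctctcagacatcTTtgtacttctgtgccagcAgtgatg
Trbv1: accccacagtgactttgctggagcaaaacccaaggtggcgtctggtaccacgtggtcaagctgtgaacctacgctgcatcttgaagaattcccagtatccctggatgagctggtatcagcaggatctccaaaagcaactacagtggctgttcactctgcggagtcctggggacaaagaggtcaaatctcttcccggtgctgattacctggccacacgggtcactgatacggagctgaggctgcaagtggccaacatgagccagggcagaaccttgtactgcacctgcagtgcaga
Trav13-1: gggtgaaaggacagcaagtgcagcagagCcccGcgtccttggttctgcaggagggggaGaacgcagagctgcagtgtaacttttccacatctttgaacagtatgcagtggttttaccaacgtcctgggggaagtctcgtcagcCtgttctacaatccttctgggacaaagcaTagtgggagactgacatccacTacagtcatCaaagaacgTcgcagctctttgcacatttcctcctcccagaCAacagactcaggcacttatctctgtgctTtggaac

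Trbv13-1 is 88.8% identical to Trbv13-2, with a longest identical run of 31 bases, and 86.1% identical to Trbv13-3. The closest segment to Trbv1 is Trbv15, at 58.0% identity with a longest identical run of 8 bases. Trav13-1 is 96.1% identical to Trav13d-1, with an identical run of 84 bases, so a count may be split among the copies of that family. The gamma segment Tcrg-V3 is 95.8% identical to Tcrg-V1 and its count is uncertain in the same way. Tcrg-V7 is 54.4% identical to Tcrg-V6, the closest of the segments named Tcrg-V. Only segments of that name were compared, so the likeness of the gamma segment Trgv2 to them is not known here.

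CD8 T cells made up a larger share of the sorted cells in PyMT-M. They were 4.05% of 7357 kept cells in PyMT-M (3.61 to 4.53%) and 0.280% of 4994 kept cells in PyMT-N (0.153 to 0.470%). Of the cells with a Cd3 UMI they were 29.98% of 994 in PyMT-M (27.1 to 32.9%) and 6.11% of 229 in PyMT-N (3.38 to 10.0%). Leaving out neutrophils gave 4.07% of 7314 cells in PyMT-M and 0.666% of 2102 cells in PyMT-N. There were 961 CD8 T cells per 100 CD4 T cells in PyMT-M, against 29.2 in PyMT-N, and 116 per 100 NK cells in PyMT-M, against 70 in PyMT-N. Every one of these ratios was higher in PyMT-M. Those to CD4 T cells and NK cells have no interval, and in PyMT-N they rest on 14 CD8 T cells, 48 CD4 T cells and 20 NK cells. A share of sorted cells does not give the number of cells in a tumour.

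The limits of the rule touched few cells of PyMT-M but many of the PyMT-N cells. Exactly 2 Cd8a and Cd8b1 UMIs were counted in 11 members of PyMT-M and 6 of the 14 members of PyMT-N, and exactly 1 in 13 cells of PyMT-M and 9 of PyMT-N that lay just outside. The step on cycling genes removed 48 cells of PyMT-M, of which 22 held Trbv13-1, 11 held Trbv1 and 30 held Gzmk, and 7 cells of PyMT-N. Exactly 2 UMIs of the cycling genes were counted in 6 members of PyMT-M, and exactly 3 in 2 cells of PyMT-M and 1 cell of PyMT-N outside. In PyMT-M 7 members had 5 to 10 C1q UMIs per 10000, and 2 cells just outside had 10 to 15.

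Of the markers of the label, Cd8a and Cd8b1 are genes of the rule and their levels are a description. Gzmk and Nkg7 lie outside the rule. Levels are UMI counts summed over the cells of a group and scaled to 1000000 (CPM). Cd8a stood at 1288 CPM in PyMT-M, against 366 CPM in PyMT-N, and had a UMI in 97.7% of the PyMT-M and 71.4% of the PyMT-N cells. Cd8b1 stood at 1286 CPM in PyMT-M, against 559 CPM in PyMT-N. Nkg7, a membrane protein of cytotoxic granules, was at 4085 CPM in PyMT-M, against 906 CPM in PyMT-N, with a log2 ratio of 2.17 (1.76 to 2.62). It had a UMI in 98.3% of the PyMT-M and 57.1% of the PyMT-N CD8 T cells, beside 5.09% of the 5439 PyMT-M macrophages, which should lack it and had a median of 5112 UMIs. Gzmk, a granzyme of effector memory cells (chr13:113171608-113225908, minus strand), was at 478.5 CPM in PyMT-M, against 19.3 CPM in PyMT-N, where 1 of the 14 cells held it. Gzmk had a UMI in 58.4% of PyMT-M CD8 T cells (52.6 to 64.0%), against 1.08% of macrophages and 0.391% of NK cells. Gzmk and Nkg7 thus stood above the free RNA level in PyMT-M, while in PyMT-N Gzmk rested on 1 UMI. Nkg7 was set against macrophages only, so it does not tell CD8 T cells from NK cells here.

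Markers of other cell types were low but not absent. The CD4 T cell, macrophage and neutrophil lists include Cd4, Foxp3, the C1q genes, S100a8 and S100a9, which the rule limited. Their low sums are therefore in part set by the rule. Per 10000 UMIs of PyMT-M cells, the CD4 T cell list summed to 1.86, the macrophage list to 4.15, the neutrophil list to 0.127 and the dendritic cell list to 2.93. Per 10000 UMIs of PyMT-N cells the same lists summed to 1.93, 1.54, 1.54 and 0.385, with 11 of the 13 macrophage genes at 0. The gamma-delta T cell list, which includes gamma chain constant segments, summed to 3.83 in PyMT-M, against 5.39 in PyMT-N. Trdc, the constant segment of the delta chain, was at 0 in all 298 PyMT-M CD8 T cells, which allows a share of up to 1.01%, and had a UMI in 39 of 256 NK cells. The NK cell list summed to 20.2 in PyMT-M, against 4.43 in PyMT-N.

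Of the 298 PyMT-M CD8 T cells, 96 held a Trbv13-1 UMI, 96 others held a Trbv1 UMI and none held both. The 0 of 96 Trbv13-1 positive cells with Trbv1 allows a share of up to 3.12%. The remaining 106 cells held neither segment, and 92 of them held another of 18 Trbv segments. Positive cells had a median of 8 Trbv13-1 UMIs (1 to 25) or 6 Trbv1 UMIs (1 to 28), and 6 Trbv13-1 and 5 Trbv1 positive cells rested on 1 UMI. In the same library Trbv13-1 was counted in 2 of 31 CD4 T cells, 0 of 256 NK cells (up to 1.17%) and 41 of 5439 macrophages, and Trbv1 in 2 CD4 T cells, 1 NK cell and 40 macrophages. Both segments were therefore far above the free RNA level in the CD8 T cells. Neither was found in the 14 PyMT-N CD8 T cells, which allows a share of up to 21.4% each.

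Cells outside these groups had a spread of segments. Trbv12-2 was counted in 22 of the 106 cells with neither segment (20.8%), Trbv13-2 in 21 (19.8%), Trbv3 in 18 (16.98%) and Trbv16 in 13 (12.3%). The cells that held the segment had a median of 1.5 UMIs for Trbv12-2, 3 for Trbv13-2, 5 for Trbv3 and 8 for Trbv16. The share with Trbv12-2 thus rests in part on cells with 1 UMI. Fewer cells held Trbv19 (7 cells), Trbv17 (6), Trbv31 (6), Trbv15 (5) or Trbv29 (5). Trbv13-2, the closest copy of Trbv13-1, was in 0 of 96 Trbv13-1 positive cells (up to 3.12%), and Trbv13-3 was counted in 1. At least 2 different Trbv segments were counted in 7 Trbv13-1 positive cells, 6 Trbv1 positive cells and 27 cells with neither. With at least 2 UMIs of each segment these were 2 Trbv13-1 positive, 3 Trbv1 positive and 7 neither cells. In PyMT-N 11 of 14 CD8 T cells held a Trbv UMI, spread over 8 segments, of which Trbv13-3 was in 3 cells and Trbv16 in 2.

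Each of the 2 beta segments came with its own companions among the alpha and gamma segments. Trav13-1 was counted in 1 of the 96 Trbv13-1 positive cells, in 86 of the 96 Trbv1 positive cells (89.6%) and in 3 of the 106 cells with neither. Tcrg-V3, a gamma segment at chr13:19242845-19243301, was in 0 Trbv13-1 positive cells (up to 3.12%), in 73 Trbv1 positive cells (76.0%) and in 3 with neither. Tcrg-V7, at chr13:19178024-19178492, was in 57 Trbv13-1 positive cells (59.4%), in 1 Trbv1 positive cell and in 1 with neither, and the constant segment Tcrg-C1 in 48 Trbv13-1 positive cells, 1 Trbv1 positive cell and 13 with neither. Read the other way, 96.6% of the cells with Tcrg-V7 were Trbv13-1 positive, and 95.6% of the cells with Trav13-1 were Trbv1 positive. Trav13-1 and Tcrg-V3 were counted together in 69 cells. Trgv2 was found in all groups, in 75 Trbv13-1 positive, 81 Trbv1 positive and 45 neither cells, and Trac, the alpha constant segment, in 60 Trbv13-1 positive, 68 Trbv1 positive and 72 neither cells. No clonotype was assembled here, and a gamma UMI shows RNA of that segment, not a gamma-delta receptor.

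**Figure D1:**
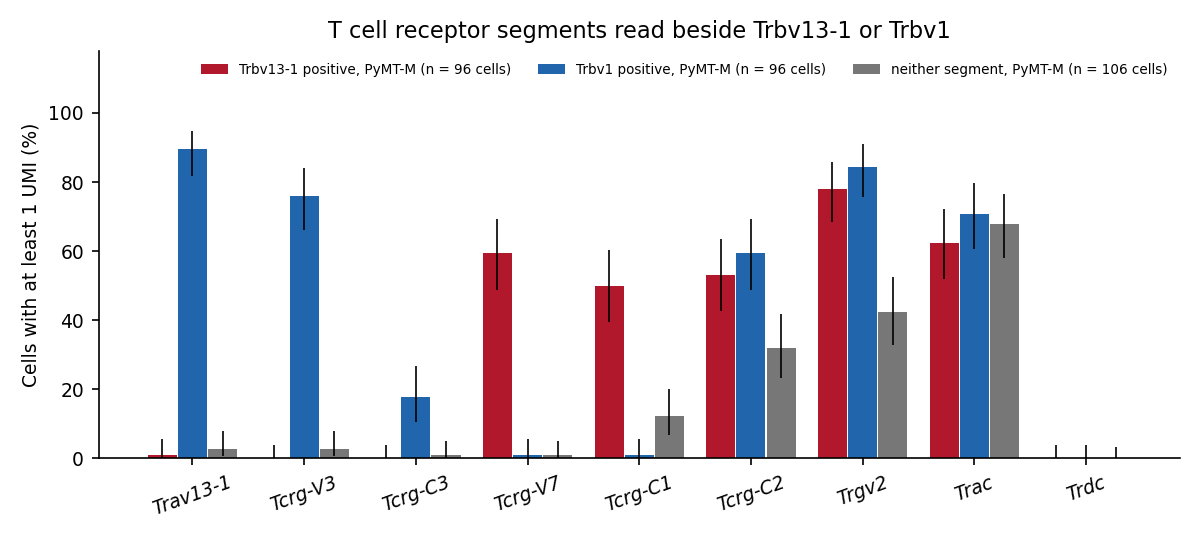
Share of PyMT-M CD8 T cells with at least 1 UMI (percent, y axis) of alpha, gamma and delta chain segments (x axis), for Trbv13-1 positive, Trbv1 positive and remaining cells; bars are shares and lines exact 95% intervals of counting error. Trav13-1 and Tcrg-V3 stand high in Trbv1 positive cells (89.6% and 76.0%), Tcrg-V7 in Trbv13-1 positive cells (59.4%), and Trdc is at 0 in each group.

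Trbv13-1 positive and Trbv1 positive cells both had more RNA of Gzmk, Pdcd1, Ctla4, Lag3 and Tox than the PyMT-M CD8 T cells with neither segment. The inhibitory receptor Cd160 was lower in both, with a log2 ratio over the neither cells of -1.50 in Trbv13-1 positive and -1.38 in Trbv1 positive cells. Gzmk was at 768 CPM in Trbv13-1 positive cells, 758 CPM in Trbv1 positive cells and 66.2 CPM in cells with neither. Pdcd1, which encodes PD-1 (chr1:94038305-94052553, minus strand), was at 232 CPM in Trbv13-1 positive, 376 CPM in Trbv1 positive and 31.1 CPM in neither cells. Ctla4, an inhibitory receptor that competes with Cd28, was at 139 CPM in Trbv13-1 positive, 149 CPM in Trbv1 positive and 21.4 CPM in neither cells. Lag3, an inhibitory receptor for MHC class II, was at 178 CPM in Trbv13-1 positive, 188 CPM in Trbv1 positive and 46.7 CPM in neither cells, Tigit at 358 CPM in Trbv13-1 positive, 441 CPM in Trbv1 positive and 185 CPM in neither cells, and the transcription factor Tox at 209 CPM in Trbv13-1 positive, 154 CPM in Trbv1 positive and 58.4 CPM in neither cells. In all 6 genes both V segment groups lay above the cells with neither, although Tigit in Trbv13-1 positive cells, with a log2 ratio of 0.95, did not reach 2-fold.

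At equal depth both V segment groups again lay above the cells with neither. With every cell thinned to 1000 UMIs, 52.6% of 95 Trbv13-1 positive cells, 51.0% of 96 Trbv1 positive cells and 7.69% of 104 cells with neither held Gzmk. The thinned shares with Pdcd1 were 18.9% of Trbv13-1 positive, 27.1% of Trbv1 positive and 4.81% of neither cells, and those with Tigit 28.4% of Trbv13-1 positive, 40.6% of Trbv1 positive and 13.5% of neither cells. Without thinning, Gzmk was in 81.2% of Trbv13-1 positive, 81.2% of Trbv1 positive and 16.98% of neither cells, and Pdcd1 in 50% of Trbv13-1 positive, 64.6% of Trbv1 positive and 9.43% of neither cells. Median depth was 3448 UMIs in Trbv13-1 positive, 3329.5 in Trbv1 positive and 4476.5 in neither cells, so the cells with neither segment were the deepest and still had the lowest shares with Gzmk and Pdcd1.

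**Figure D2:**
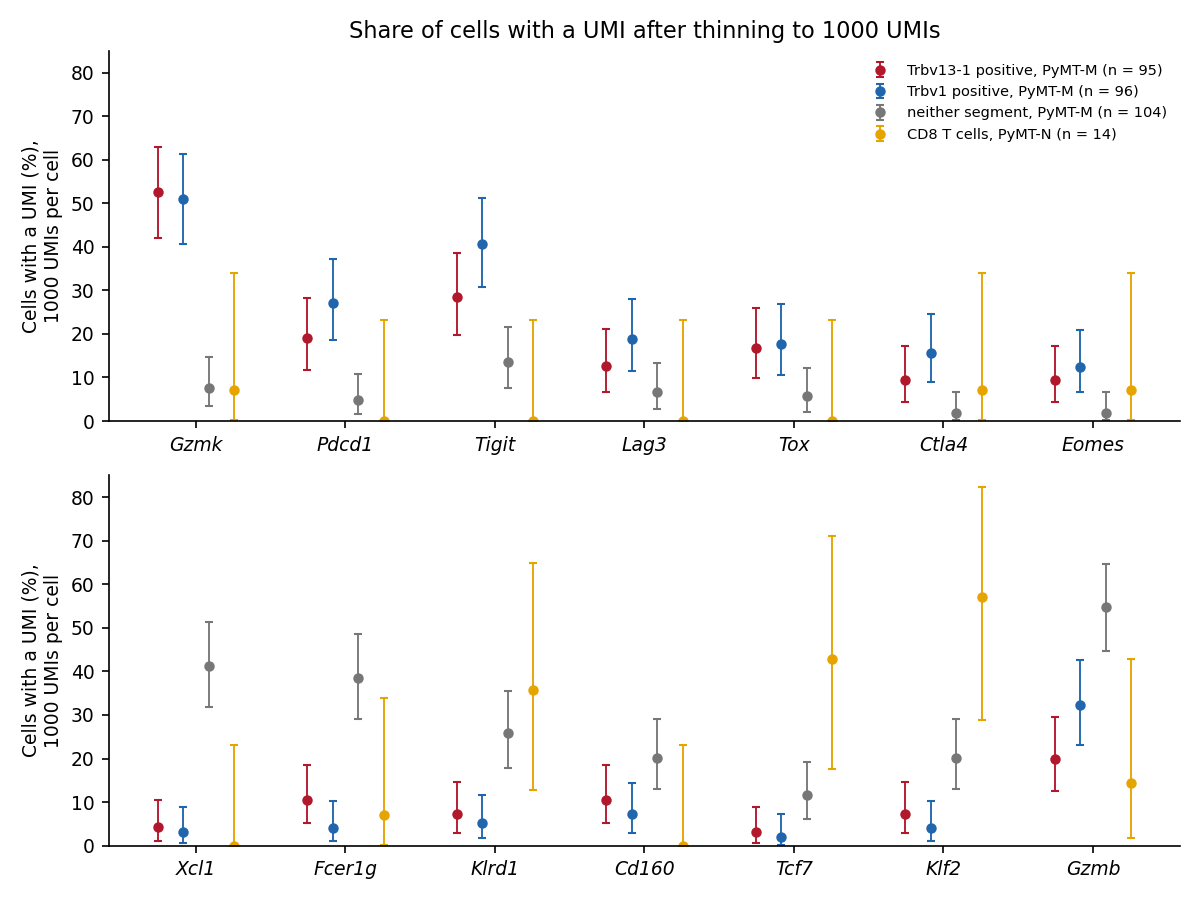
Share of CD8 T cells with a UMI of each gene (percent, y axis) after each cell was thinned to 1000 UMIs, for the 3 V segment groups of PyMT-M and for PyMT-N; points are shares, bars exact 95% intervals of counting error. Gzmk, Pdcd1 and Tigit are highest in the Trbv13-1 and Trbv1 groups, Xcl1, Fcer1g and Gzmb in the cells with neither, and Tcf7 in PyMT-N.

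Over all genes, Trbv13-1 positive cells were set first against every other PyMT-M CD8 T cell. Of 5582 genes with at least 20 UMIs, 171 were 2-fold or more higher in Trbv13-1 positive cells (3.06%) and 267 2-fold or more lower (4.78%), on a scale of log2 (CPM + 1), and the median log2 ratio was 0.07. Genes of the killer receptor and adaptor list were lower in Trbv13-1 positive cells. The list holds 12 lectin-like and related receptors shared with NK cells and 2 signalling adaptors, Fcer1g and Tyrobp, which myeloid cells also express. Of its 14 genes 11 were measured and 10 of them were 2-fold or more lower in Trbv13-1 positive cells, with a median log2 ratio of -1.62. Their UMIs summed to 11.4 per 10000 in Trbv13-1 positive and 24.4 in Trbv13-1 negative cells, a log2 ratio of -1.10 (-1.26 to -0.96). The adaptors gave 73.9% of that sum in Trbv13-1 positive and 62.3% in negative cells. At 1000 UMIs per cell the whole list had a median of 12 UMIs in PyMT-M macrophages and 13 in PyMT-M NK cells, so its sum does not set NK cells apart from myeloid cells. Without the adaptors, an alternative added after seeing the data, all 9 measured receptors were 2-fold or more lower in Trbv13-1 positive cells, and they summed to 2.96 per 10000 in Trbv13-1 positive and 9.21 in negative cells, a log2 ratio of -1.63 (-1.93 to -1.35). Where both Cd8a and Cd8b1 had to be counted in a cell, a requirement added after seeing the data, the ratio of the whole list was -0.41. The NK cell marker list shares genes with this list, among them Fcer1g and Tyrobp, so it is not a separate observation. It summed to 12.8 per 10000 in Trbv13-1 positive and 23.5 in Trbv13-1 negative cells. The adaptors alone gave 8.40 per 10000 in positive and 15.2 in negative cells. What part NK cell markers have in the result was not tested.

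Klre1, a killer lectin-like receptor, was at 5.15 CPM in Trbv13-1 positive and 75.9 CPM in Trbv13-1 negative cells, a log2 ratio of -3.64. Klra7, a Ly49 receptor whose family has near-identical copies and is therefore uncertain, was at 20.6 CPM in Trbv13-1 positive and 121 CPM in negative cells, and Cd244 at 15.5 CPM in positive and 79.3 CPM in negative cells. Xcl1, a chemokine that attracts Xcr1-bearing dendritic cells (chr1:164931644-164935527, minus strand), was at 124 CPM in Trbv13-1 positive and 594 CPM in negative cells, a ratio of -2.26 (-2.72 to -1.84). Ly6c2, a surface antigen of memory and effector T cells, was at 49.0 CPM in positive and 284 CPM in negative cells. The other genes lower by the naming rule were Gpr34, Cd6, Plac8, Sidt1 and Chn2, with log2 ratios between -3.28 and -1.92.

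Of the type I interferon list 7 of 40 measured genes were 2-fold or more higher in Trbv13-1 positive than in negative cells and 1 lower. Over all genes 3.06% were higher and 4.78% lower. Of the cell cycle genes outside the rule 1 of 16 was higher, which is 1 gene only. Ifit3, which is induced by type I interferon, was at 335 CPM in Trbv13-1 positive and 97.7 CPM in negative cells, a log2 ratio of 1.77 (1.37 to 2.19), and Ifit3b followed with 1.48. Cxcl10, an interferon-induced chemokine, had a ratio of 1.93, but 61 of its 108 UMIs in Trbv13-1 positive cells came from 1 cell. Ube2c, which works with the mitotic ubiquitin ligase, and Cks1b, which binds cyclin-dependent kinases, had ratios of 1.94 and 1.66, and 11 of the 32 Ube2c UMIs in Trbv13-1 positive cells came from 1 cell. Klrg1, a receptor of terminal effector cells, was at 59.2 CPM in positive and 18.4 CPM in negative cells. Fhl2, Cyth2, Wdr95 and Gpr183, the oxysterol receptor, completed the 10 genes, with ratios between 1.92 and 1.51. Gzmk had a ratio of 1.13 and Tox of 1.09, while Pdcd1 differed by 0.43 (0.03 to 0.81) and Nkg7 by 0.17.

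The Trbv13-1 negative group was a mixture of Trbv1 positive cells, which shared the high Gzmk and Pdcd1 levels, and of cells that did not, so these were separated, a grouping added after seeing the data. Against the cells with neither segment, 271 of 4616 genes were 2-fold or more higher (5.87%) and 222 2-fold or more lower (4.81%) in Trbv13-1 positive cells. Trbv1 positive cells had 252 of 4494 genes higher (5.61%) and 278 lower (6.19%) against the same cells with neither, so these comparisons are not independent. The median log2 ratio over all genes was 0.11 for Trbv13-1 positive and 0.06 for Trbv1 positive cells. In Trbv13-1 positive over neither cells Gzmk had a log2 ratio of 3.52 (3.02 to 4.09), Pdcd1 of 2.86 (2.12 to 3.76), Ctla4 of 2.64 (1.75 to 3.79), Tox of 1.82 and the serpin Serpinb6a of 2.54. In Trbv1 positive over neither cells Gzmk had a ratio of 3.50 (3 to 4.08), Pdcd1 of 3.55 (2.84 to 4.44), Ctla4 of 2.74, Lag3 of 1.99 and Serpinb6a of 2.31.

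The checkpoint and exhaustion list of 17 genes summed to 17.5 per 10000 in Trbv13-1 positive, 20.5 in Trbv1 positive and 12.3 in neither cells. Of its measured members, and over the neither cells, 4 of 14 were 2-fold or more higher and 2 lower in Trbv13-1 positive cells. Over all genes 5.87% were higher and 4.81% lower there. In Trbv1 positive cells 5 of 13 were higher and 2 lower, beside 5.61% higher and 6.19% lower over all genes. Cd244, the receptor 2B4, was among the lower ones in Trbv13-1 positive cells, with a ratio of -2.58. Lgals1, a galectin, was at 2120 CPM in Trbv13-1 positive, 1727 CPM in Trbv1 positive and 496 CPM in neither cells, and Eomes, a T-box factor of effector and exhausted cells, had a ratio of 1.31 in Trbv13-1 positive over neither cells. Nkg7 was at 4423 CPM in Trbv13-1 positive, 5989 CPM in Trbv1 positive and 2511 CPM in neither cells. Gzmb, the main granzyme of killing, ran the other way, at 1002 CPM in Trbv13-1 positive, 604 CPM in Trbv1 positive and 2499 CPM in neither cells, and 129 of its 389 UMIs in Trbv13-1 positive cells came from 1 cell.

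Among the pathway lists the killer receptor and adaptor list had the lowest median log2 ratio in both comparisons. It summed to 11.4 per 10000 in Trbv13-1 positive cells, 3.90 in Trbv1 positive cells and 38.7 in neither cells. All 10 measured members were 2-fold or more lower in Trbv13-1 positive cells, with a median log2 ratio of -2.11, beside 4.81% of all genes. In Trbv1 positive cells all 11 were lower, with a median of -2.81, beside 6.19% of all genes. The ratio of the sums was -1.77 in Trbv13-1 positive and -3.31 in Trbv1 positive cells, over the neither cells. Where both Cd8 chains had to be counted it was -1.29 in Trbv13-1 positive and -2.43 in Trbv1 positive cells, and with no C1q or S100 UMI allowed it was -4.41 in Trbv1 positive cells. Without Fcer1g and Tyrobp the 12 receptors summed to 2.96 per 10000 in Trbv13-1 positive, 2.415 in Trbv1 positive and 13.9 in neither cells, with a ratio over the neither cells of -2.23 in Trbv13-1 positive and -2.52 in Trbv1 positive cells. Between Trbv13-1 positive and Trbv1 positive cells these receptors had a ratio of 0.29 (-0.12 to 0.72), while the adaptors summed to 8.40 per 10000 in Trbv13-1 positive and 1.49 in Trbv1 positive cells. Over the alternative settings this ratio ran from 1.175 to 3.85 for Fcer1g and from 2.02 to 4.30 for Tyrobp. Klre1 was at 5.15 CPM in Trbv13-1 positive, 2.81 CPM in Trbv1 positive and 126.5 CPM in neither cells. Klra5 and Klra6, of the uncertain Ly49 family, and Klrb1a were at 0 UMIs in Trbv1 positive cells. Against a floor of 3 UMIs over the group, Klra5 was at least 13.2-fold, Klra6 at least 9.47-fold and Klrb1a at least 8.55-fold lower there than in neither cells. Xcl1, at 124 CPM in Trbv13-1 positive, 59.0 CPM in Trbv1 positive and 965 CPM in neither cells, had a log2 ratio over the neither cells of -2.96 in Trbv13-1 positive and -4.01 in Trbv1 positive cells. The summed NK cell marker list, which shares genes with this list, was 12.8 per 10000 in Trbv13-1 positive, 4.77 in Trbv1 positive and 36.5 in neither cells, and its part in the result was not tested.

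Genes of naive and memory cells were also lower in both V segment groups than in the cells with neither. The list of 15 genes summed to 10.2 per 10000 in Trbv13-1 positive, 11.1 in Trbv1 positive and 17.5 in neither cells. Of its measured members 7 of 12 were 2-fold or more lower in Trbv13-1 positive cells, beside 4.81% of all genes. In Trbv1 positive cells 8 of 11 were lower, beside 6.19% of all genes. Tcf7, the transcription factor TCF1 of memory and stem-like cells, was at 36.1 CPM in Trbv13-1 positive, 30.9 CPM in Trbv1 positive and 117 CPM in neither cells, and Klf2, which drives the genes for tissue exit, at 191 CPM in Trbv13-1 positive, 75.8 CPM in Trbv1 positive and 302 CPM in neither cells. Ccr7, a chemokine receptor that guides cells to lymph nodes, was at 23.2 CPM in Trbv13-1 positive, 2.81 CPM in Trbv1 positive and 74.0 CPM in neither cells. Igfbp4, an IGF-binding protein, was at 5.15 CPM in Trbv13-1 positive and 83.7 CPM in neither cells, and at least 9.94-fold lower in Trbv1 positive cells, where it had 0 UMIs. Ly6c2 was at 49.0 CPM in Trbv13-1 positive, 47.7 CPM in Trbv1 positive and 448 CPM in neither cells.

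**Figure D3:**
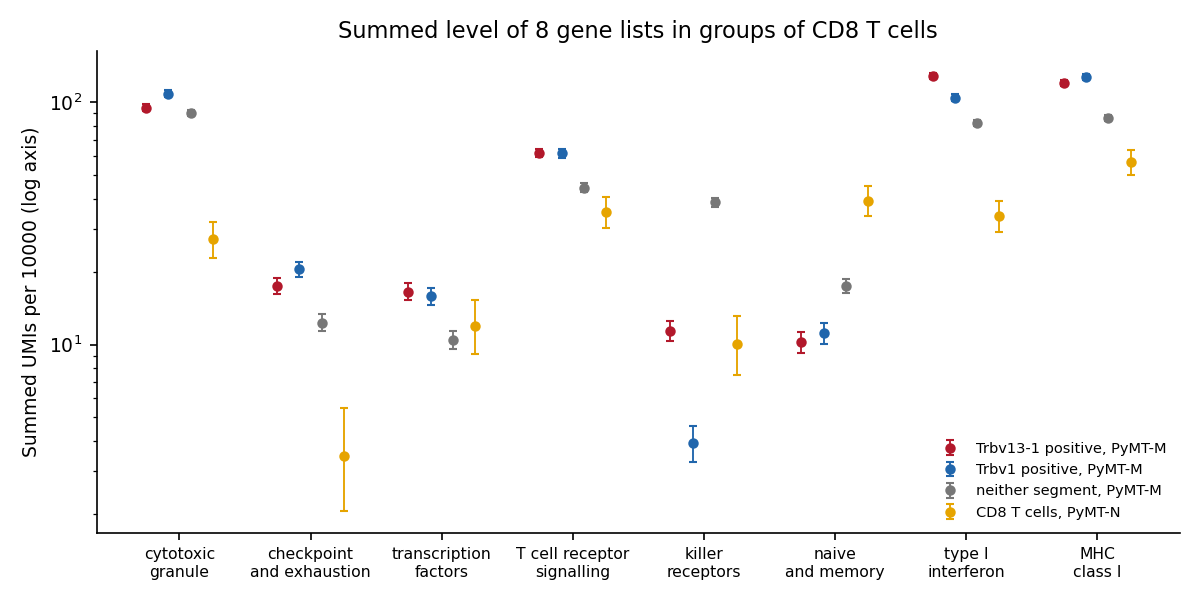
Summed UMIs per 10000 (y axis, log scale) of 8 gene lists in Trbv13-1 positive, Trbv1 positive and remaining CD8 T cells of PyMT-M and in CD8 T cells of PyMT-N; points are sums and bars exact 95% Poisson intervals of counting error. The killer receptor list, with its adaptors Fcer1g and Tyrobp, runs from 3.90 in Trbv1 positive to 38.7 in cells with neither segment, and PyMT-N stands lowest for the checkpoint list (3.47) and highest for the naive and memory list (39.3).

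The V segment groups also differed from each other. Of 4078 genes, 157 were 2-fold or more higher (3.85%) and 92 2-fold or more lower (2.26%) in Trbv13-1 positive than in Trbv1 positive cells, with a median log2 ratio of 0.04. Capg, an actin filament capping protein (chr6:72544391-72562983, plus strand), had the largest log2 ratio among the genes of the naming rule, at 203.5 CPM in Trbv13-1 positive and 8.42 CPM in Trbv1 positive cells, a log2 ratio of 4.44 (2.995 to 6.90). It had a UMI in 38.5% of Trbv13-1 positive and 3.12% of Trbv1 positive cells, and was at 134 CPM in cells with neither. Over the cells with neither, Capg had a log2 ratio of 0.60 in Trbv13-1 positive and -3.84 in Trbv1 positive cells.

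Other genes higher in Trbv13-1 positive than in Trbv1 positive cells were Ikzf2, the transcription factor Helios, with 67.0 CPM in Trbv13-1 positive and 16.8 CPM in Trbv1 positive cells, and Tagln2, an actin-binding protein, with 466 CPM in Trbv13-1 positive and 117.9 CPM in Trbv1 positive cells. The adhesion molecule Jaml, Lxn, Fhl2 and Trim12a had ratios between 2.04 and 1.44. Lower in Trbv13-1 positive cells were Rgs16, which shortens G protein signals of chemokine receptors, at 23.2 CPM against 104 CPM, the scavenger receptor Cd6 at 18.0 CPM against 98.3 CPM, and Adgrg1, the adhesion receptor GPR56, at 36.1 CPM against 104 CPM in Trbv1 positive cells. Sfn, Ccdc107, Zfp593 and Abcb9 were lower with ratios between -1.84 and -1.52. Gzmk did not differ beyond counting error between these groups, with a ratio of 0.02 (-0.22 to 0.26).

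Cytokines and chemokines summed to 168 per 10000 in Trbv13-1 positive cells, 237 in Trbv1 positive cells and 130 in neither cells. Ccl5, a chemokine that draws T cells and myeloid cells, was at 14650 CPM in Trbv13-1 positive, 21340 CPM in Trbv1 positive and 10180 CPM in neither cells, and Ccl4, a further chemokine of effector cells, at 337.5 CPM in Trbv13-1 positive, 921 CPM in Trbv1 positive and 477 CPM in neither cells. The ratio of Trbv13-1 positive over Trbv1 positive cells was -0.54 (-0.59 to -0.49) for Ccl5 and -1.45 (-1.75 to -1.15) for Ccl4. Ifng, the cytokine interferon gamma, was at 85.01 CPM in Trbv13-1 positive, 112 CPM in Trbv1 positive and 31.1 CPM in neither cells.

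Type I interferon genes were highest in Trbv13-1 positive cells among the 3 groups of PyMT-M. The list summed to 129 per 10000 in Trbv13-1 positive, 105 in Trbv1 positive and 82.4 in neither cells. Higher by 2-fold or more than in neither cells were 10 of 39 measured genes in Trbv13-1 positive cells (1 lower), beside 5.87% higher and 4.81% lower over all genes, and 5 of 38 in Trbv1 positive cells (2 lower), beside 5.61% higher and 6.19% lower. Isg15, a ubiquitin-like protein, was at 786 CPM in Trbv13-1 positive, 505 CPM in Trbv1 positive and 440 CPM in neither cells, and Ifit1, which binds foreign RNA, at 304 CPM in Trbv13-1 positive, 205 CPM in Trbv1 positive and 83.7 CPM in neither cells. Ifit3 was at 335 CPM in Trbv13-1 positive, 126 CPM in Trbv1 positive and 77.8 CPM in neither cells, and Ifi27l2a at 5175 CPM in Trbv13-1 positive, 4254 CPM in Trbv1 positive and 3458 CPM in neither cells. Ly6a, the surface antigen Sca-1, was at 1079 CPM in Trbv13-1 positive, 556 CPM in Trbv1 positive and 535 CPM in neither cells. MHC class I genes summed to 120 per 10000 in Trbv13-1 positive, 127 in Trbv1 positive and 86.5 in neither cells, with 0 of 9 members past 2-fold in either comparison with neither cells.

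At 1000 UMIs per cell, Trbv13-1 positive cells had a median of 9 type I interferon UMIs (0 to 61), Trbv1 positive cells of 8 (0 to 54), neither cells of 6 (0 to 62) and PyMT-N CD8 T cells of 2 (0 to 20). The ranges of the 3 PyMT-M groups overlapped over nearly their whole length, and that of PyMT-N was shorter. At least 5 such UMIs were counted in 80% of Trbv13-1 positive cells (70.5 to 87.5%), 65.6% of Trbv1 positive cells, 57.7% of neither cells and 21.4% of PyMT-N cells (4.66 to 50.8%). Because 43 of the PyMT-M CD8 T cells had 4 or 5 of these UMIs, such a share is a range and not a class of cells. Within PyMT-M the same share was 69.5% in all CD8 T cells, 51.6% in CD4 T cells, 13.8% in NK cells and 48.5% in macrophages.

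**Figure D4:**
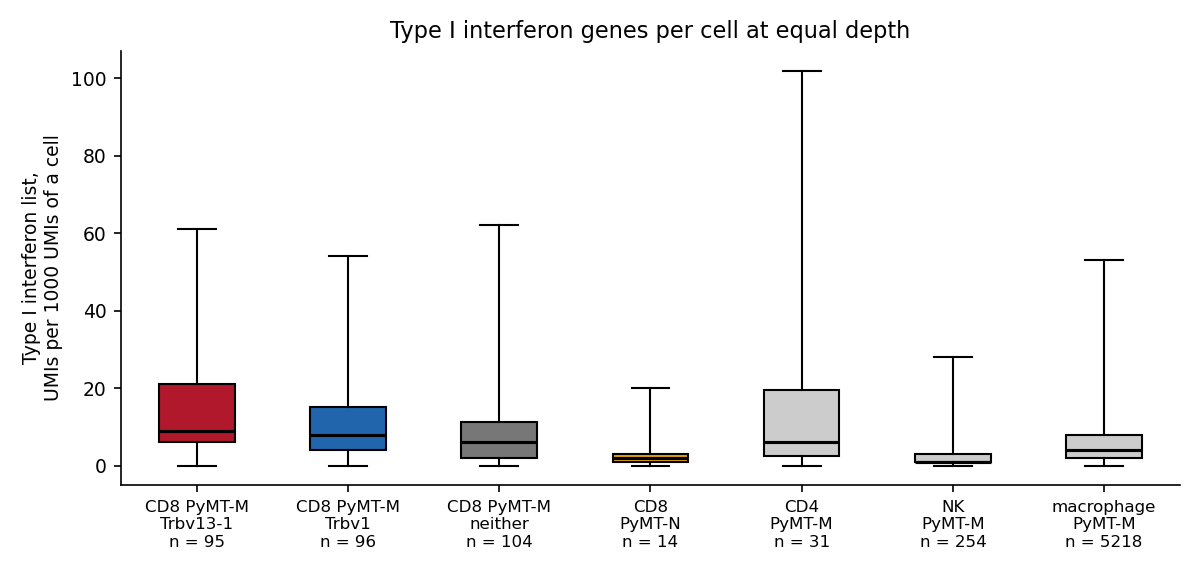
Type I interferon UMIs per cell after thinning to 1000 UMIs (y axis) in groups of CD8 T cells and, for PyMT-M, in CD4 T cells, NK cells and macrophages; boxes give quartiles with the median line, whiskers the lowest and highest cell. Medians are 9, 8 and 6 in the Trbv13-1, Trbv1 and neither groups, 2 in PyMT-N CD8 T cells and 1 in NK cells.

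Markers of macrophages and dendritic cells moved with the Trbv13-1 group. The macrophage list summed to 9.63 per 10000 in Trbv13-1 positive, 1.09 in Trbv1 positive and 2.12 in neither cells. The dendritic cell list summed to 5.77 in Trbv13-1 positive, 0.449 in Trbv1 positive and 2.51 in neither cells. Few cells carried this: 159 of the 309 Lyz2 UMIs in Trbv13-1 positive cells and 143 of the 170 Cd74 UMIs came from 1 cell each. Lyz2, the lysozyme of myeloid cells, was at 796 CPM in Trbv13-1 positive, 11.2 CPM in Trbv1 positive and 125 CPM in neither cells. Without cells removed by a doublet score, Lyz2 and Cd74 were lower, not higher, in Trbv13-1 positive than in Trbv13-1 negative cells, with log2 ratios of -1.99 for Lyz2 and -0.94 for Cd74. The summed type I interferon list had a log2 ratio of Trbv13-1 positive over negative cells of 0.50 (0.44 to 0.55), which was 0.49 after that removal and 0.48 without cells of 5 or more Lyz2 UMIs. It had its lowest value of 0.29 where both Cd8a and Cd8b1 were required.

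Fcer1g and Tyrobp divided the cells with neither segment. These genes encode signalling adaptors of NK and myeloid receptors, and Fcer1g lies at chr1:171229572-171234365 on the minus strand. Fcer1g was counted in 14 of 96 Trbv13-1 positive cells, 8 of 96 Trbv1 positive cells and 50 of 106 cells with neither, and stood at 513 CPM in Trbv13-1 positive, 107 CPM in Trbv1 positive and 1684 CPM in neither cells. Tyrobp was at 327 CPM in Trbv13-1 positive, 42.1 CPM in Trbv1 positive and 792 CPM in neither cells. In this library Fcer1g was in 99.7% of macrophages and in all NK cells, and what free RNA adds to its counts here was not tested. The split that follows was chosen after these values were seen.

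Among the cells with neither segment, Tyrobp was counted in 64% of the 50 cells with Fcer1g and 5.36% of the 56 cells without, or in 38% with and 3.70% without at 1000 UMIs per cell. Cd8a was in 100% of the cells with Fcer1g and 92.9% without, but Cd8b1, the beta chain of the CD8 coreceptor, was in 26% of cells with Fcer1g and 94.6% of cells without, or in 12% with and 64.8% without at equal depth. Since the rule asks for 2 UMIs of Cd8a and Cd8b1 together, every cell without Cd8b1 has Cd8a by the rule. Cd3e was in 98% with and 96.4% without Fcer1g, and a Trbv segment in 88% with and 85.7% without, shares that are close to each other. Trdc and Zbtb16, a transcription factor of innate-like T cells, were at 0 in both, which allows up to 6% of the cells with Fcer1g and 5.36% of those without, and Ncr1, an NK receptor, was in 2% with and 0% without Fcer1g.

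Single killer receptors were commoner in the cells with Fcer1g. Klra7 was in 40% of the cells with Fcer1g and 0% of those without, Klrb1c in 40% with and 0% without, Klre1 in 52% with and 10.7% without, Klrd1 in 74% with and 39.3% without, and Cd160 in 74% with and 28.6% without. Ikzf2 was in 60% with and 0% without, Itgae, the integrin alpha chain of epithelial T cells, in 60% with and 8.93% without, and Cd7 in 92% with and 44.6% without. Xcl1 was in 90% with and 37.5% without, and Gzmb in 82% with and 42.9% without. The opposite order was seen for Ly6c2 (14% with and 39.3% without), Lef1 (4% with and 28.6% without) and Ccr7 (2% with and 25% without). Gzmk was in 6% with and 26.8% without, and Pdcd1 in 4% with and 14.3% without, low in both beside the V segment groups. Median depth was 5160 UMIs with Fcer1g and 3752 without, and at 1000 UMIs Klra7 was in 20% with and 0% without, Ikzf2 in 22% with and 0% without and Itgae in 22% with and 3.70% without. The gaps of other receptors were smaller at that depth than before thinning. Klrd1 was then in 30% with and 22.2% without, and Klre1 in 12% with and 5.56% without. Klrb1c was in 10% with and 0% without, and Cd160 in 34% with and 7.41% without. A doublet score removed 0 of the cells with Fcer1g and 1 without, and Lyz2 was in 12% with and 3.57% without. Among Trbv13-1 positive cells the score removed 2 of the 14 with Fcer1g and 0 of the 82 without. The score's own threshold had not worked, so these removals do not show which cells are doublets, and this was not tested.

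**Figure D5:**
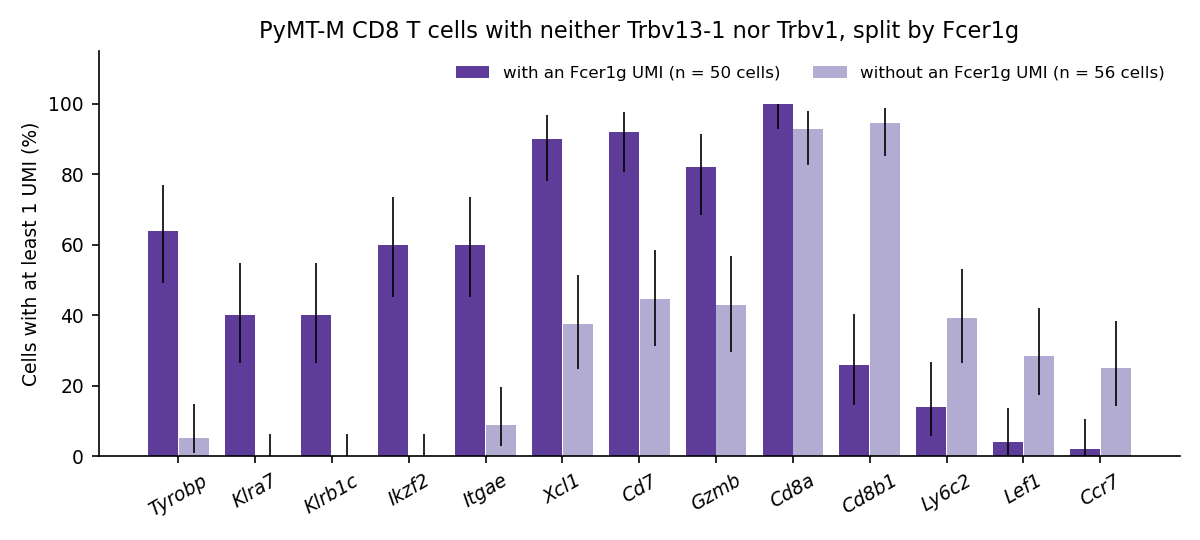
Share of PyMT-M CD8 T cells with neither Trbv13-1 nor Trbv1 that held a UMI of each gene (percent, y axis), for the 50 cells with and the 56 cells without an Fcer1g UMI; lines are exact 95% intervals of counting error. Tyrobp, Klra7, Ikzf2 and Itgae are in 40% to 64% of the cells with Fcer1g, while Cd8b1 (94.6%) and Lef1 (28.6%) are commoner in the cells without.

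Between the tumours, CD8 T cells of PyMT-M had higher levels of cytotoxic, checkpoint and interferon genes, and those of PyMT-N of naive and memory genes. The 298 PyMT-M cells held 1258112 UMIs and the 14 PyMT-N cells 51898, and 1228 of the 5697 measured genes had 0 UMIs in PyMT-N. Higher by 2-fold or more in PyMT-M were 1939 genes (34%), or 734 (12.9%) when a gene at 0 was set against 3 UMIs, and 474 (8.32%) were 2-fold or more lower. The median log2 ratio was 0.41, and 0.07 after scaling by the median ratio of well-counted genes, so ratios near 0.4 are not called higher. Macrophage, dendritic cell and NK cell markers were also higher in PyMT-M and the ribosomal share lower, and their part in these differences was not tested. The NK cell list includes Fcer1g and Tyrobp, which summed to 13.1 per 10000 in PyMT-M and 3.47 in PyMT-N. The 12 killer receptors without them summed to 7.28 in PyMT-M and 6.55 in PyMT-N. Their log2 ratio of 0.15 (-0.34 to 0.69) was not beyond counting error. Counts of list members below use the setting against 3 UMIs, under which 12.9% of all genes were higher and 8.32% lower.

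Of 17 measured cytotoxic genes 9 were 2-fold or more higher in PyMT-M and 0 lower. The list summed to 97.0 per 10000 in PyMT-M, against 27.2 in PyMT-N, with a log2 ratio of 1.84 (1.60 to 2.09). Gzmb was at 1501 CPM in PyMT-M, against 135 CPM in PyMT-N, with a ratio of 3.47 (2.43 to 4.79), but of 0.76 with cycling cells kept. Checkpoint genes summed to 16.2 in PyMT-M, against 3.47 in PyMT-N, with 7 of 15 higher and 0 lower. Pdcd1 had 240 UMIs in PyMT-M, against 0 in PyMT-N, at least 3.30-fold higher, and Tigit was at 311 CPM in PyMT-M, against 19.3 CPM in PyMT-N. Because 0 of 14 cells allows a share of up to 21.4%, Pdcd1 was not detectable in PyMT-N at this depth, which does not show that it was absent.

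Naive and memory genes went the other way. Of 14 measured genes 11 were 2-fold or more lower in PyMT-M and 0 higher, with a median log2 ratio of -2.40. They summed to 13.4 per 10000 in PyMT-M, against 39.3 in PyMT-N, with a ratio of -1.55 (-1.76 to -1.33), which was -1.01 with cycling cells kept. Il7r, the interleukin 7 receptor, was at 19.9 CPM in PyMT-M, against 250.5 CPM in PyMT-N, and had a UMI in 5.71% of the PyMT-M and 50% of the PyMT-N cells. Klf2 was at 203.5 CPM in PyMT-M, against 1060 CPM in PyMT-N, with a UMI in 23.2% of the PyMT-M and 92.9% of the PyMT-N cells. S1pr1, the receptor for tissue exit, was at 19.1 CPM in PyMT-M, against 193 CPM in PyMT-N, and Tcf7 at 67.6 CPM in PyMT-M, against 366 CPM in PyMT-N. Klf3, a repressor related to Klf2, had a ratio of -3.64, but of 3.86 at 1000 UMIs per cell.

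The other genes of the naming rule for this comparison were Xcl1, Serpina3g, Tapbp, Ctla2a, Ifit1, Ifit3, Mxd4, Irf1 and Slbp, all at 0 UMIs in PyMT-N. Xcl1 was at least 7.77-fold higher in PyMT-M, but with cycling cells kept it was counted in PyMT-N as well and had a log2 ratio of 1.17, and Slbp of 0.36. Without those cells Serpina3g, a protease inhibitor of activated T cells, was higher by at least 6.06-fold in PyMT-M, and Tapbp, the peptide loading factor tapasin, by at least 3.77-fold. The interferon-induced Ifit1 was at least 3.22-fold higher, Ifit3 at least 2.96-fold and the transcription factor Irf1 at least 2.68-fold. Lower in PyMT-M were Igfbp4, with 35.8 CPM in PyMT-M, against 212 CPM in PyMT-N, and Nme1, Hnrnpa0, Gnl3 and Leng8, with ratios between -2.60 and -2.48. Cxcl3, a neutrophil chemokine, had 0 UMIs in PyMT-M, against 31 in PyMT-N, all in 1 cell.

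Type I interferon genes summed to 103 per 10000 in PyMT-M, against 33.9 in PyMT-N CD8 T cells, with 19 of 40 2-fold or more higher and 0 lower. The log2 ratio of 1.60 (1.39 to 1.83) was 1.13 where 3 Cd8a and Cd8b1 UMIs were required and 2.66 where both chains were, each with fewer PyMT-N cells. Ifi27l2a was at 4213 CPM in PyMT-M, against 1869 CPM in PyMT-N, and Ly6a at 709 CPM in PyMT-M, against 193 CPM in PyMT-N. MHC class I genes summed to 108.5 in PyMT-M, against 56.7 in PyMT-N, with 6 of 9 2-fold or more higher. Cytokines and chemokines summed to 172 in PyMT-M, against 46.4 in PyMT-N, and Ccl5 was at 14720 CPM in PyMT-M, against 3603 CPM in PyMT-N. Glycolysis and hypoxia genes had a median of -0.18, with 3 of 14 higher and 3 lower, beside 12.9% higher and 8.32% lower over all genes.

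Beside the other lymphocytes of PyMT-M, CD8 T cells lay between CD4 T cells and NK cells in cytotoxic genes. Against the 31 CD4 T cells, 749 of 5884 genes were 2-fold or more higher (12.7%) and 625 lower (10.6%), and against the 256 NK cells 436 of 7816 were higher (5.58%) and 516 lower (6.6%). The cytotoxic list summed to 97.0 per 10000 in CD8 T cells, 29.6 in CD4 T cells and 189 in NK cells. The 12 killer receptors without the adaptors summed to 7.28 in CD8 T cells, 1.01 in CD4 T cells and 40.3 in NK cells, and 11 of 12 were 2-fold or more lower in CD8 T cells than in NK cells, which were themselves chosen by Ncr1 and Klrb1c of that list. Type I interferon genes summed to 103 in CD8 T cells, 131 in CD4 T cells and 24.5 in NK cells, with 31 of 42 2-fold or more higher in CD8 T cells than in NK cells.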

How the data were processed

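Immune cells sorted from mammary tumours of 2 lines were read in 2 libraries, 1 per line. The authors deposited raw UMI counts for each gene and barcode, without normalisation, and the file headers name 3.1.0 as the version of the writing software. The submitters' processing notes list mm10, Cell Ranger and Seurat, whose versions are not given in the sources used here. Cell types were not taken from the authors.

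CD8 T cells were taken by the rule stated at the start of the text. The members, the comparisons and the 18 pathway and 10 marker lists were chosen with earlier results of these data known. CD4 T cells passed the same filters with a Cd4 or Foxp3 UMI and no Cd8a or Cd8b1 UMI. NK cells had no Cd3 or Cd8 UMI and at least 2 UMIs of Ncr1 and Klrb1c, and macrophages at least 50 C1q UMIs per 10000. Counts were summed over the cells of a group and scaled to 1000000 (CPM) with exact Poisson intervals. Shares have Clopper-Pearson intervals and ratios exact conditional binomial intervals, all at 95%. The share that a count of 0 allows was instead taken as 3 divided by the number of cells. It lies below the upper Clopper-Pearson limit, which is 23.2% for 0 of 14 cells. Log2 ratios used a pseudocount of 1 CPM and genes with at least 20 UMIs over both groups. The pseudocount understates changes of low genes counted in both groups. It can overstate those of genes at 0 UMIs in 1 group, since 3 UMIs in the 14 PyMT-N cells are 57.8 CPM. In the comparison of the tumours such genes were therefore also set against 3 UMIs. A gene past 2-fold was counted. No p-value was computed, because each line has 1 library and cells are not replicates. Nothing in the labels gives separate animals.

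Genes named in each comparison were the up to 10 furthest from 0 in each direction that had at least 30 UMIs, at least 50 CPM in the higher group and an interval beyond 1.5-fold. Genes of the rule, mitochondrial, ribosomal, receptor segment, immunoglobulin and predicted genes were left out, as were genes under 0.5 of their level in macrophages or neutrophils. The other genes named are list members, markers or segments, or were chosen after their values were seen. A few genes that the rule names are not reported here. To compare shares of cells, each cell was thinned to 1000 UMIs, which left out 3 PyMT-M CD8 T cells.

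Depth was 564 to 15155 UMIs per PyMT-M and 2008 to 6007 per PyMT-N CD8 T cell. Scrublet, run through scanpy 1.11.5, marked 0 and 2 cells of PyMT-M and PyMT-N by its own threshold and so had not worked. Doublets were therefore kept apart from the limits of the rule on C1q, S100, Cd4 and Foxp3, and removing the top scores at 0.8% per 1000 cells was an alternative. The scripts were tested on simulated counts with known changes. Python 3.11.15 with numpy 2.4.6, scipy 1.17.1, pandas 2.3.3 and matplotlib 3.10.9 was used.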

Additional observations from a re-analysis of the deposited data

How the results depend on the processing

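Each value was recomputed under other cell filters, scalings, pseudocounts, gene minimums and depths. The requirement of both Cd8 chains, the removal of cells with 5 or more Lyz2 UMIs, the removal of the top cell per gene, the killer list without Fcer1g and Tyrobp and the floor of 3 UMIs were chosen after seeing the data. Of the recomputed values that answer a comparison 267 moved by less than their interval or under 1.5 times and 91 moved further. Of the recomputed values of single genes and members 2541 stayed within their interval, 183 moved past it and 3, each past 2-fold as reported, changed direction. One of them was Klf3 in PyMT-M over PyMT-N, at 3.86 in thinned cells, where very few Klf3 UMIs are left. The others were Lyz2 at -1.99 and Cd74 at -0.94 in Trbv13-1 positive over negative cells after removal by Scrublet score. The causes of these moves were not tested, apart from counts of genes, where a minimum of 5 or 50 UMIs tests more or fewer genes and thinning leaves fewer UMIs. No paired analysis was possible because each line has 1 library and no result comes from a test.

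The CD8 share in PyMT-M was 3.57% with no C1q or S100 UMI allowed, 4.70% with cycling cells kept and 3.37% with both chains, which gave 0.140% in PyMT-N. The Trbv13-1 share was 26.8% in thinned cells and the Trbv1 share 38.3% with both chains. For PyMT-M over PyMT-N the genes higher were 4052 at a minimum of 5 UMIs, 970 at 50, 767 in thinned cells and 734 against the floor of 3 UMIs. The genes lower were 820 with median ratio scaling, 303 with a pseudocount of 10, 1148 at a minimum of 5 UMIs, 120 at 50, 177 in thinned cells and 716 without mitochondrial, ribosomal and receptor genes. The cytotoxic ratio was 1.49 with 3 Cd8 UMIs, 1.37 with cycling cells, 1.48 with the other scaling, 2.14 thinned and 1.56 without mitochondrial, ribosomal and receptor genes. The naive and memory ratio was -1.84, -1.01, -1.90 and, without those genes, -1.83. The type I interferon ratio was 1.13, 2.02, 1.25 and 1.32 under these settings, thinning apart, and 2.66 with both chains.

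For Trbv13-1 positive over negative cells the genes higher were 77 with a pseudocount of 10, 615 at 5 UMIs, 50 at 50 UMIs and 77 thinned. The genes lower were 111, 873, 62 and 98 under the same settings, 173 with both chains and 424 without top cells. The killer receptor and adaptor ratio was -1.49 after Scrublet removal, -1.40 with cycling cells, -1.68 thinned, -1.48 without Lyz2-rich cells, -1.63 without Fcer1g and Tyrobp and -0.41 with both chains. The checkpoint ratio was -0.027 thinned and at most 0.20 under the other settings. The naive and memory ratio was -0.72 with positives from 2 UMIs and at most -0.455 elsewhere. Neither ratio reached 2-fold under any of these settings. The type I interferon ratio was 0.43 with no C1q or S100 UMI, 0.39 with cycling cells, 0.40 with the other scaling, 0.43 thinned, 0.39 without mitochondrial, ribosomal and receptor genes, 0.55 with positives from 2 UMIs and 0.29 with both chains.

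For Trbv13-1 positive over neither cells the genes higher were 160 with a pseudocount of 10, 873 at 5 UMIs, 84 at 50 and 112 thinned, and the genes lower 132, 935, 56, 62 and, with both chains, 123. The killer receptor and adaptor ratio was -2.15 after Scrublet removal, -2.04 with cycling cells, -2.57 thinned, -1.92 without mitochondrial, ribosomal and receptor genes, -2.145 without Lyz2-rich cells, -2.23 without Fcer1g and Tyrobp and -1.29 with both chains. For Trbv1 positive over neither cells the genes higher were 132, 769, 85 and 108, the genes lower 156, 995, 65, 68 and, with both chains, 143. The killer receptor and adaptor ratio there was -4.41 with no C1q or S100 UMI, -2.52 without Fcer1g and Tyrobp and -2.43 with both chains. For Trbv13-1 positive over Trbv1 positive cells the genes higher were 97, 762, 36 and 66 and the genes lower 42, 571, 15 and 49. The PyMT-N values rest on 14 cells.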
